A study of Rattus norvegicus with 12 samples.

Results

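The genes described here are 10 heat shock chaperone genes of the cytosol and the mitochondrion: Hspa8, Hspa4, Hsph1, Hsp90aa1, Hsp90ab1, Dnaja1, Dnajb1, Hspd1, Hspe1 and Hspa9. They were chosen by name as rows of the count table, and each of the 10 symbols had a single row among the 30562 genes listed. All 10 passed the filter on low values, which left 8938 genes for testing. The libraries were bulk RNA-seq of primary oligodendrocyte precursor cells (OPCs), the glial cells that give rise to myelinating oligodendrocytes, cultured from the cerebral cortex of wild-type Sprague-Dawley rats at postnatal day 1 or 2. Both groups grew in Neurobasal medium with FGF-2 and PDGF-AA. The 6 mild-hypo-OPC libraries (the mild group) came from cells kept at an inspired oxygen fraction (FiO2) of 5%, and the 6 standard OPC libraries (the standard group) from cells without this preconditioning. The labels give an exposure of 6 hours, whereas the methods text gives days. Pooling of animals was not described. The legend for these libraries gives n = 3 biological replicates per group, whereas 6 libraries per group were analysed, and the labels do not say which of them share a culture. Every SD, SE and p-value with n = 6 therefore measures the spread between libraries, part of which may be technical, and would be too small if libraries shared a culture.

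Heat shock chaperones bind unfolded or partly folded proteins and let them fold through cycles of ATP binding and hydrolysis. In the cytosol, J-domain proteins hand clients to HSP70, HSP110 proteins act as exchange factors that release them, and HSP90 completes the maturation of many kinases and steroid receptors. In the mitochondrial matrix, mortalin pulls imported chains across the membrane and the HSP60 barrel, closed by its HSP10 lid, folds them. Most of these genes are transcribed at a high level in unstressed cells and carry binding sites for heat shock factors in their promoters.

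Those sites are shown first because several members carry one, and because a single site lies between both genes of the mitochondrial chaperonin. Heat shock factors bind the heat shock element, inverted repeats of GAA. RefSeq promoters of the GRCr8 assembly, 250 bases before to 50 after each start site, held 9 of the 10 members, without Hsp90aa1. The 3-unit element was searched as GAANNTTCNNGAA and TTCNNGAANNTTC, which are each other's reverse complement and so cover both strands, and overlapping matches were joined. It was present in 5 of the 9 promoters, compared with 0.798% of all 33469 promoters. The 4-unit element, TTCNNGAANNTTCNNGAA or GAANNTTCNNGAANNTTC, contains it and was present in 2 of the 9, compared with 0.0478%. The shortest form, GAANNTTC or TTCNNGAA, was present in 7 of the 9 but also in 15.9% of all promoters. Each site is given below 5′ to 3′ on the strand of its gene, with the element in capitals and its neighbouring bases in lower case.
Hspa8, chr8:50080293-50080321 (+), bases -213 to -201 from the start site: gcgagcgtGAAAGTTCCAGAAcgctgcgg
Hspa8, chr8:50080451-50080479 (+), bases -55 to -43: cggaacccTTCTGGAAGGTTCtaagacag
Hsph1, chr12:10427324-10427352 (+), bases -36 to -24: gccgcagaTTCTGGAAAGTTCtcctcagt
Dnaja1, chr5:60638405-60638433 (+), bases 10 to 22: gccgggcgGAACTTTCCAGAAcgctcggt
Hspd1, chr9:64084256-64084285 (-), bases -242 to -225: ggggccTTCCGGAAGGTTCTAGAAccgagc
Hspe1, chr9:64084256-64084285 (+), bases -65 to -48: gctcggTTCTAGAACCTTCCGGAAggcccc
The last pair of lines is the same stretch of chromosome 9 read on opposite strands. Hspd1 and Hspe1 are transcribed away from each other from start sites 289 bases apart, and the 4-unit element lies between them, nearer to Hspe1. The 3-unit form was not found within this window of Hspa4, Hsp90ab1, Dnajb1 or Hspa9. A match describes the letters only, and binding was not measured.

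The libraries differed in depth together with the condition. Total counts ranged from 4111669 to 9022324 in the mild group and from 1356079 to 2797513 in the standard group, without overlap, and TMM scaling factors from 1.08 to 1.23 and from 0.809 to 0.945. Levels below are in CPM, counts scaled to a common library size with these factors. Genes of the OPC and oligodendrocyte lineage were abundant in every library. The summed level of 8 lineage markers was 10570 to 11390 CPM in the mild group and 8235 to 10570 CPM in the standard group. Mbp, a myelin gene whose protein the paper used as a marker of maturation, made up most of this sum (median 6843 CPM against 6000 CPM). The median of Pdgfra was 227.5 CPM against 211.3 CPM, and that of Cspg4 was 69.35 CPM against 60.01 CPM. Ptprz1 went the other way (814.5 CPM against 945.2 CPM). Of the 8 lineage markers only Gpr17 was called, as higher (1296 CPM against 977.4 CPM), so Mbp, Pdgfra and Cspg4 were not called. Astrocyte markers (6 genes) summed to 458 to 568 CPM against 442 to 501 CPM. Among them, Aqp4 was called higher (median 58.03 CPM against 34.41 CPM) and S100b lower (39.67 CPM against 55.5 CPM). Microglial markers (7 genes) summed to 37.8 to 49.9 CPM against 17.3 to 35.6 CPM, and neuronal markers (6 genes) to 126 to 141 CPM against 69.9 to 109 CPM, so that neither range overlapped. Tubb3 made up most of the neuronal sum (median 95.6 CPM against 54.5 CPM), and the median of Rbfox3 was 2.50 CPM against 2.82 CPM. Slc17a7, a defining gene of excitatory neurons, was at 0 in all mild libraries, and the endothelial genes Pecam1, Cdh5 and Flt1 summed to at most 0.350 CPM and 1.10 CPM. Fewer cells of a type and less RNA per cell cannot be told apart in such libraries, and the part of these markers in the results was not tested.

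Compared with standard OPCs, mild-hypo-OPCs had less Hspe1 mRNA and slightly more Hsph1 mRNA, and the other 8 chaperones did not pass the test. Hspe1, which encodes the HSP10 lid, was at 0.556 times its standard level, and its 6 libraries all lay below the 6 standard ones. Hsph1, which encodes an HSP110 exchange factor, was at 1.23 times its standard level. The call of 1 higher and 1 lower gene among 10 compares with 7% and 17% of all 8938 genes, and 24% in either direction, where the adjusted threshold was 0.05 in the quasi-likelihood test of edgeR. With 2 of 10 called, the share of members was near that background. Of the members, 8 had a log2 fold change above 0, and the median was 0.07 (range, -0.85 to 0.29), compared with -0.003 over all genes, of which 49.6% were above 0. Together the 10 genes took between 0.422% and 0.448% of the scaled counts in the mild group (median 0.434%) and between 0.397% and 0.438% in the standard group (median 0.409%), with overlap. Of the total counts without TMM factors they took 0.476% to 0.523% in the mild group and 0.319% to 0.398% in the standard group. Those ranges did not overlap, so the separation of this share depended on the scaling.

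**Figure D1:**
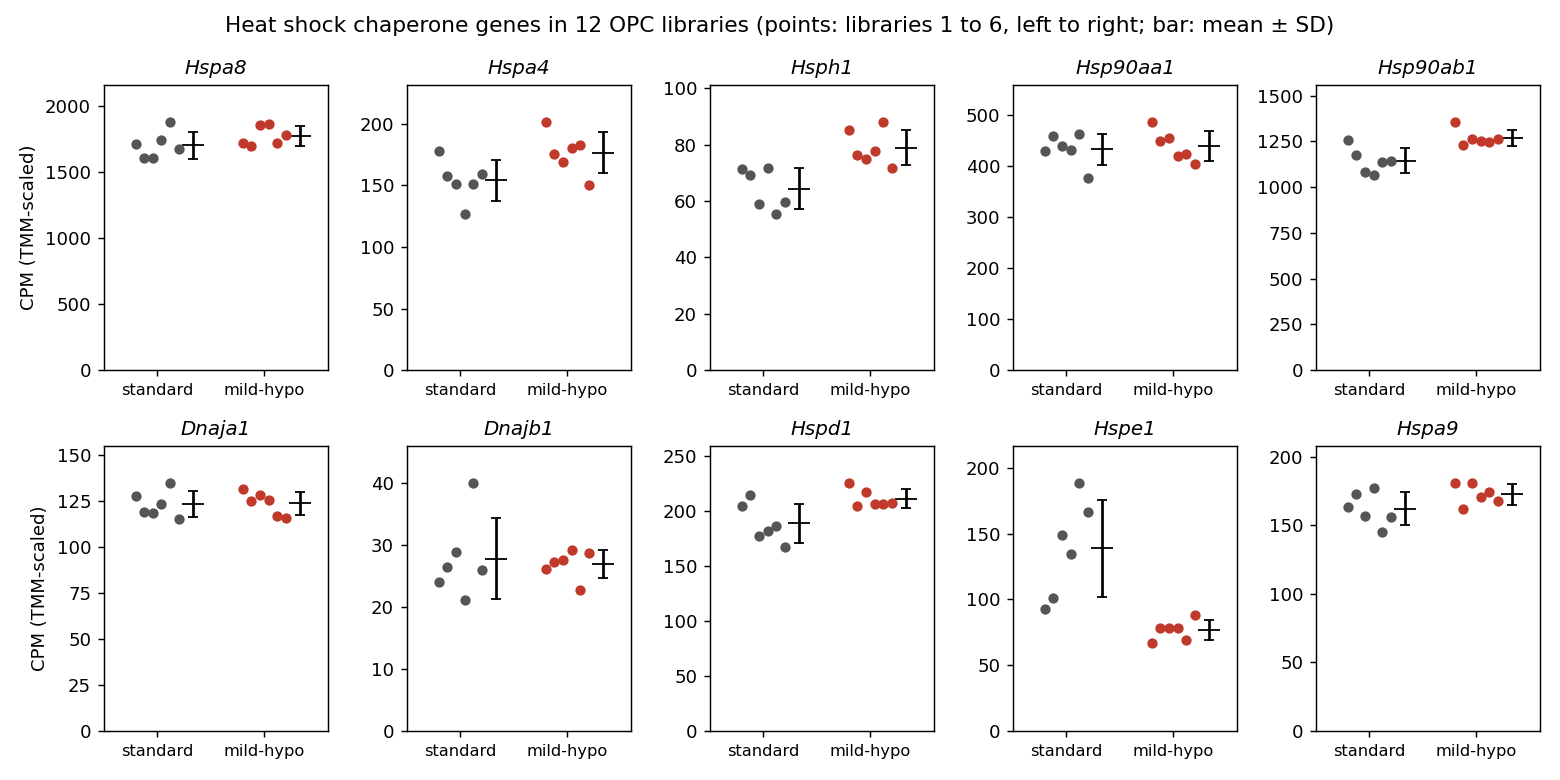
Level of each of the 10 chaperone genes in CPM (TMM-scaled, linear axis from 0) in the 6 standard OPC and 6 mild-hypo-OPC libraries, with 1 point per library and bars for the mean ± SD. Only Hspe1 shows 2 sets of points without overlap, 66.6 to 87.9 CPM below 92.9 to 189 CPM, and the other panels overlap.

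**Figure D2:**
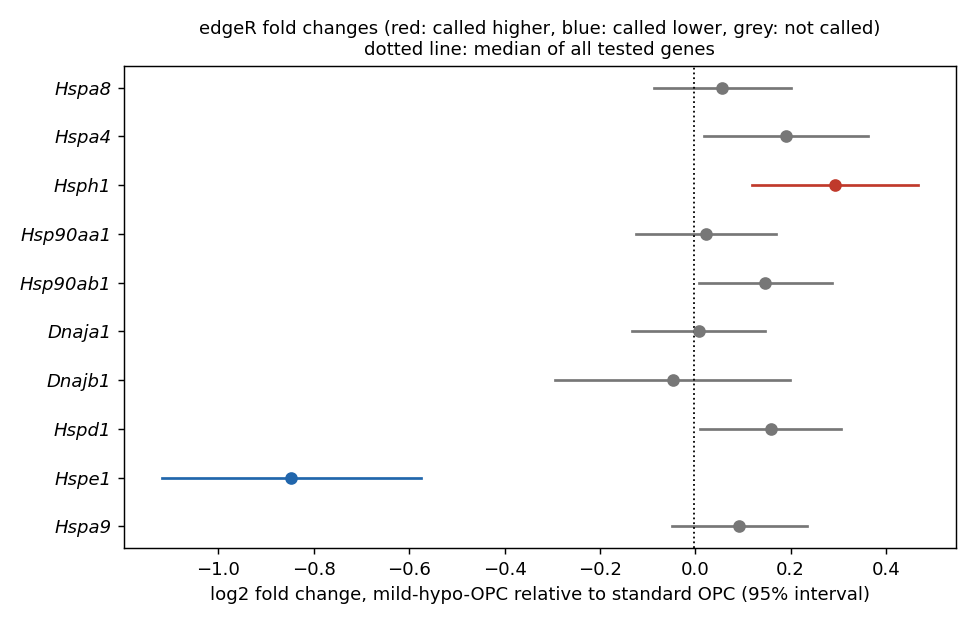
Log2 fold change of each gene (mild-hypo-OPCs relative to standard OPCs, TMM scaling) with its 95% interval, and a dotted line at the median of all 8938 genes. Hspe1 lies at -0.85 (interval, -1.12 to -0.58) and Hsph1 at 0.29 (interval, 0.12 to 0.47), and the remaining 8 points lie between -0.05 and 0.19.

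Hspa8 encodes HSC70, the constitutive cytosolic HSP70 that binds unfolded segments of many proteins. Its level ran from 1693 to 1862 CPM (median 1748) in the mild group and from 1607 to 1877 CPM (median 1689.7) in the standard group. The standard range enclosed the mild range at both ends, with standard replicate 5 the highest of the 12 libraries. The log2 fold change was 0.06 (SE 0.073, adjusted p = 0.612, edgeR's quasi-likelihood test), with a 95% interval of -0.09 to 0.20. Hspa8 was also among the steadiest members, with a coefficient of variation of 4.15% in the mild group and 5.93% in the standard group.

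Both HSP110 genes, whose products release nucleotide and client from HSP70, had higher mean levels in the mild group, and 1 of them passed the test. Hsph1 levels in mild-hypo-OPC replicates 1 to 6 were 85.2, 76.2, 75.0, 77.6, 87.9 and 71.7 CPM. In standard OPC replicates 1 to 6 they were 71.5, 69.2, 58.9, 71.8, 55.3 and 59.5 CPM. The groups overlapped only in that the lowest mild library (replicate 6, 71.72 CPM) lay just under the highest standard one (replicate 4, 71.78 CPM). The mean was 78.9 ± 6.29 CPM (SD, n = 6) against 64.4 ± 7.26 CPM, a log2 fold change of 0.29 (SE 0.089, adjusted p = 0.0220, edgeR). This call rested on single libraries: the adjusted p was 0.0525 without standard replicate 3 and 0.0521 without standard replicate 5. It was also lost when every library was thinned to the smallest total (log2 fold change 0.24, adjusted p = 0.151) and when total count (log2) was a covariate (0.10, adjusted p = 0.957). With that covariate 0 of all 8938 genes were called higher and 43 lower.

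Hspa4, the second HSP110 gene, ran from 150.3 to 201 CPM (median 178) in the mild group and from 127 to 178 CPM (median 154) in the standard group. Most of that overlap came from mild replicate 6, the lowest of its group, and standard replicate 1, the highest of its own. The log2 fold change was 0.19 (SE 0.087, adjusted p = 0.121, edgeR), which did not pass, although it did without mild replicate 6 (0.26, adjusted p = 0.0363) or standard replicate 1 (0.24, adjusted p = 0.0470). Within a library the ratio of Hsph1 to Hspa4 counts did not separate the groups, with a log2 ratio of -1.16 ± 0.078 (SD, n = 6) in the mild group and -1.26 ± 0.232 in the standard group. The difference of 0.10 gave p = 0.377 in a two-sided exact permutation test (adjusted p = 0.502 over the 4 ratios tested here). Standard replicate 4, at -0.82, was the highest of the 12 libraries, and without it the difference was 0.18 (adjusted p = 0.0346).

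Neither J-domain gene passed the test. Dnaja1 and Dnajb1 encode HSP40 proteins that stimulate the ATPase of HSP70 and deliver clients to it, and Dnajb1 is among the more heat-inducible of them. Dnaja1 ran from 116 to 131 CPM (median 125) in the mild group and from 115 to 135 CPM (median 121) in the standard group. These ranges almost coincided, and the log2 fold change was 0.01 (SE 0.071, adjusted p = 0.957, edgeR), with a 95% interval of -0.13 to 0.15. Dnajb1, the lowest-counted member at 23 to 63 counts per standard library, ran from 22.7 to 29.1 CPM (median 27.4) and from 21.2 to 40.0 CPM (median 26.2). Standard replicate 5 was the high library at 40.0 CPM, and the other 5 standard libraries did not exceed 28.9 CPM. The log2 fold change of Dnajb1 was -0.05 (SE 0.126, adjusted p = 0.824, edgeR), and its interval, from -0.29 to 0.20, was wider than that of any other uncalled member. The log2 ratio of Dnajb1 to Dnaja1 within a library was -2.20 ± 0.133 (n = 6) against -2.16 ± 0.274, and the difference of -0.04 did not pass (two-sided exact permutation test, p = 0.773).

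HSP90 genes also stayed uncalled. Hsp90ab1, the constitutive form, ran from 1231 to 1355 CPM (median 1256) in the mild group and from 1068 to 1255 CPM (median 1141) in the standard group. Of the standard libraries, 5 of 6 lay below every mild library, and only standard replicate 1 reached into the mild range. The log2 fold change of 0.15 (SE 0.071) had an adjusted p of 0.143 in edgeR with TMM factors, 0.0341 in edgeR with upper-quartile scaling (log2 fold change 0.22) and 0.00773 in DESeq2 with its own size factors. Hsp90aa1, the form that responds more to stress, ran from 405 to 487 CPM (median 437) and from 378 to 463 CPM (median 435). Its groups overlapped almost completely, with a log2 fold change of 0.02 (SE 0.075, adjusted p = 0.861, edgeR).

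The balance between both HSP90 forms was compared within each library. The log2 ratio of Hsp90aa1 to Hsp90ab1 counts ran from -1.64 to -1.45 in the mild group and from -1.60 to -1.30 in the standard group. Of the standard libraries, 4 of 6 lay above every mild library, while standard replicates 1 and 6 lay within the mild range. The mean difference of -0.13 did not pass (p = 0.0714 in a two-sided exact permutation test, adjusted over the ratios to 0.143). Without standard replicate 6 it was -0.17, with an adjusted p of 0.0346 in the same exact test.

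Of the mitochondrial chaperones, the gene for the HSP10 lid moved and those for the HSP60 barrel and mortalin did not pass. Hspe1 levels in mild-hypo-OPC replicates 1 to 6 were 66.6, 78.3, 78.7, 78.3, 69.2 and 87.9 CPM, from 382 to 638 counts per library. In standard OPC replicates 1 to 6 they were 92.9, 101, 149, 134, 189 and 166 CPM, from 146 to 283 counts. The groups did not overlap, which held for 5.4% of all genes in this direction and for 1 of the 10 members. In the other direction 2.94% of all genes were separated, and 0 members. Standard replicates 1 and 2 lay nearest to the mild libraries and were also the deepest libraries of their group, with 2797513 and 2295080 counts. The mean was 76.5 ± 7.67 CPM (SD, n = 6) against 139 ± 37.1 CPM, a log2 fold change of -0.85 (SE 0.139, adjusted p = 0.000306, edgeR's quasi-likelihood test). The decrease was smaller in libraries numbered 1 to 3 (log2 fold change -0.59, adjusted p = 0.0378) than in those numbered 4 to 6 (-1.06), a difference that was not tested. With total count (log2) as a covariate it was -0.17 and did not pass (adjusted p = 0.942), and depth and condition cannot be told apart in this design. Only 43 of all 8938 genes passed as lower with that covariate.

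Hspd1, which encodes HSP60 and shares its promoter region with Hspe1, ran from 204 to 226 CPM (median 207) in the mild group and from 167 to 215 CPM (median 184) in the standard group. Standard replicates 3 to 6 lay below every mild library, while standard replicates 1 and 2 lay within the mild range. The log2 fold change was 0.16 (SE 0.075, adjusted p = 0.136, edgeR), opposite in sign to that of Hspe1. Hspa9, which encodes mortalin, the HSP70 of the mitochondrial matrix, ran from 162 to 181 CPM (median 172) and from 145 to 178 CPM (median 160.2). Its groups overlapped, with a log2 fold change of 0.09 (SE 0.072, adjusted p = 0.378, edgeR).

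The counts of the lid gene relative to the barrel gene separated the groups completely. The log2 ratio of Hspe1 to Hspd1 in mild-hypo-OPC replicates 1 to 6 was -1.76, -1.38, -1.47, -1.40, -1.58 and -1.24. In standard OPC replicates 1 to 6 it was -1.14, -1.08, -0.25, -0.44, 0.02 and -0.01. Every mild library lay below every standard library, and standard replicates 1 and 2 again stood nearest to the mild group. On a linear scale, Hspe1 counts were 0.361 times Hspd1 counts in the mild group and 0.715 times in the standard group. The difference of -0.99 on the log2 scale gave p = 0.00216 in a two-sided exact permutation test, the smallest that 924 splits of 6 against 6 allow (adjusted p = 0.00866). A ratio within a library does not depend on the scaling factor, but counts are not corrected for transcript length, so only its change between groups can be read. In libraries 1 to 3 the difference was -0.71 and in libraries 4 to 6 it was -1.26, each with p = 0.1, which is the smallest that 3 against 3 allow in an exact permutation test.

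**Figure D3:**
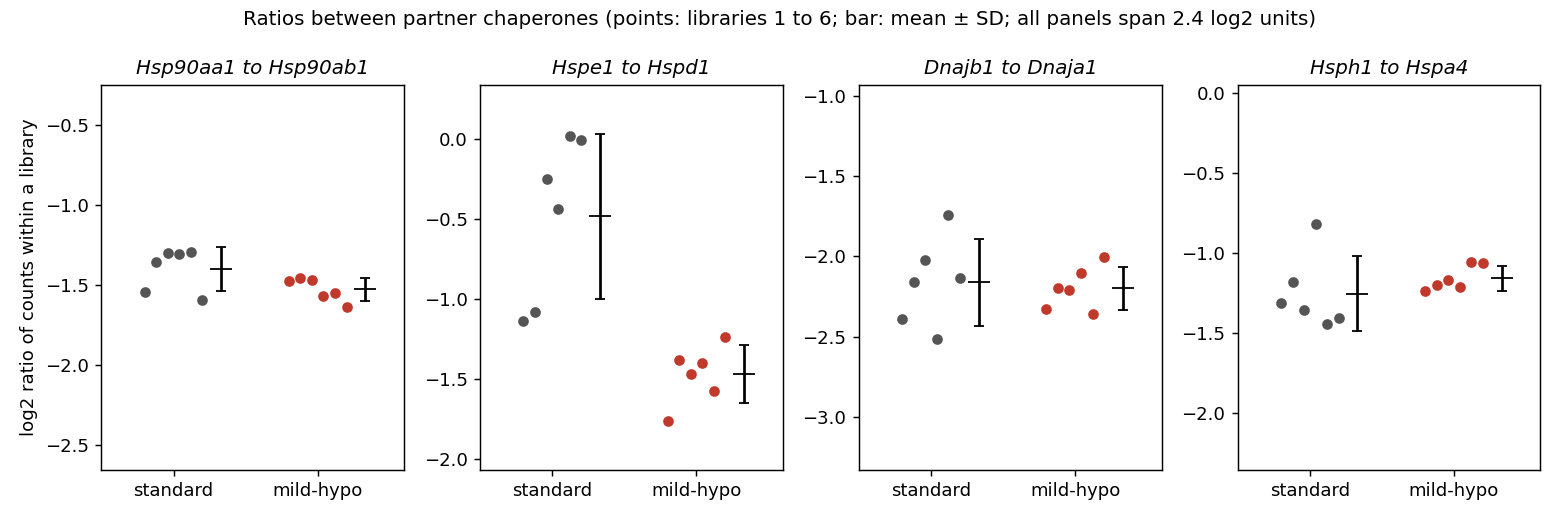
Log2 ratio of counts between partner chaperones within each library (Hsp90aa1 to Hsp90ab1, Hspe1 to Hspd1, Dnajb1 to Dnaja1 and Hsph1 to Hspa4), with 1 point per library and bars for the mean ± SD of 6 libraries. Hspe1 to Hspd1 is the ratio whose groups do not overlap, from -1.76 to -1.24 against -1.14 to 0.02.

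Among themselves, the members did not vary as 1 block. Taking each library's deviation from its group mean (log2 CPM, 12 libraries), the closest pairs were Hsph1 and Hspa9 (Pearson's r = 0.766), Hspa4 and Hsp90ab1 (r = 0.759), Hsp90aa1 and Dnaja1 (r = 0.702) and Hsp90ab1 and Hspd1 (r = 0.673). Hspe1 ran against most of the others, with a median r of -0.492, and its lowest values were with Hsph1 (r = -0.849) and Hspd1 (r = -0.755). Dnajb1 deviated with Hspe1 (r = 0.617) and against Hsph1 (r = -0.818). These values describe 12 points that share scaling factors and differ in depth. The genes whose deviations were most like the members' mean deviation, over the same 12 libraries, were Atg3 (r = 0.852), Strbp (r = 0.833), Mprip (r = 0.814), Trim23 (r = 0.809) and Pals2 (r = 0.808). They were picked for the highest r among all tested genes outside the lists, and the part of chance in this choice was not tested. The mean deviation was 0.101 in standard replicate 5 and between -0.0432 and 0.0525 in the other libraries. Of these 5, Atg3 was lower in the mild group (log2 fold change -0.31, adjusted p = 0.0143, edgeR), a call that was lost without mild replicate 2 (adjusted p = 0.0520) or 5 (adjusted p = 0.0516) and a value that was 0.12 with library size only. The other 4 were not called.

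The wider chaperone network was then read from 7 lists of 75 genes by role, of which 64 were tested and St13 and Vbp1 had no row. None of the 64 was higher, compared with 7% of all genes, and 13 were lower (20.3%, compared with 17%). The median log2 fold change was -0.12, with 21 of 64 above 0. The count of 0 higher genes was also 0 in limma-voom and DESeq2, and without adjustment 4 genes were higher at the 0.05 threshold. It rested on the scaling, with 5 higher and 7 lower by upper quartile and 41 higher and 5 lower by library size only. Over all 8938 genes, 1136 were higher and 1255 lower by upper quartile, and 5515 and 405 by library size only. All 6 mild libraries lay below all standard ones in 6 of the 64 genes (9.38%, compared with 5.4% of all genes). The tested prefoldin subunits other than Pfdn2, the exchange factor gene Bag1 and the mitochondrial exchange factor gene Grpel1 accounted for the larger decreases. The count of lower genes was 6 without mild replicate 5, 7 without mild replicate 1 or 2, and 8 without mild replicate 3 or standard replicate 5. Higher genes numbered 2 without standard replicate 1 and 1 without standard replicate 4. None of the 64 passed once total count (log2) entered the fit as a covariate, where 0 of all 8938 genes were higher and 43 lower.

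**Figure D4:**
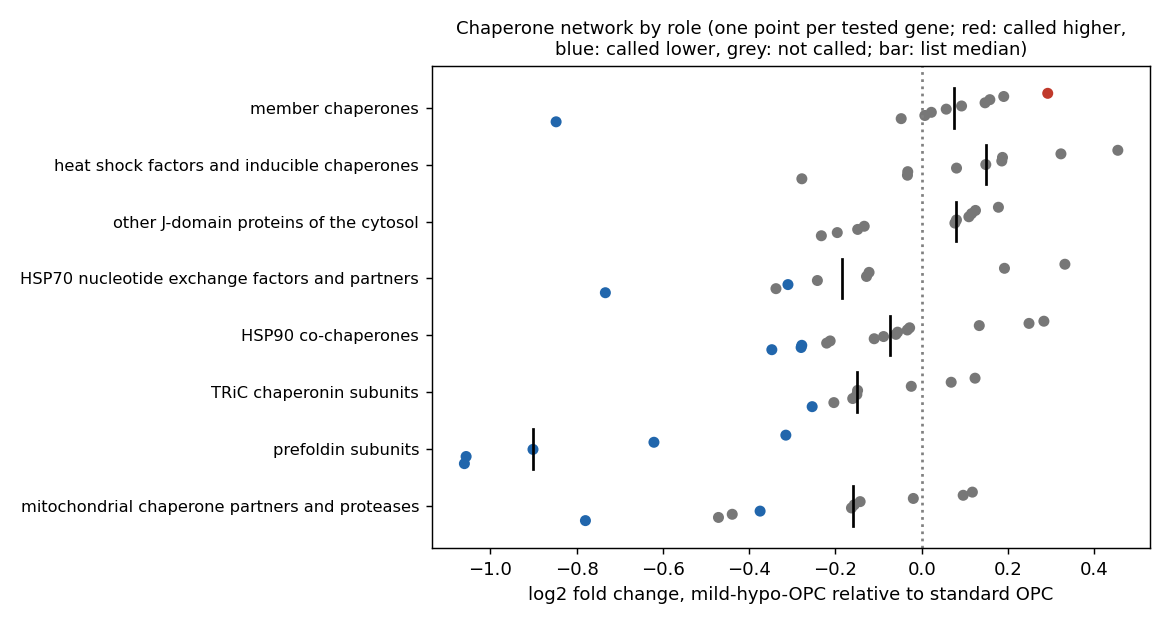
Log2 fold change (mild-hypo-OPCs relative to standard OPCs, TMM scaling) of every tested gene in the member list and the 7 wider lists, with 1 point per gene and a bar at each list's median. All 5 prefoldin subunits lie below 0, with a median of -0.90 (with library size only, Pfdn2 is above 0), while the other list medians lie between -0.19 and 0.15.

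No tested gene of the heat shock factor and inducible chaperone list passed in the main test of all 12 libraries. Of 14 heat shock factors and inducible chaperones 9 were tested, and 0 passed in either direction in edgeR, compared with 24% of all genes. Unadjusted, 1 was higher and 0 were lower, and the median log2 fold change was 0.15. Hsf1, the main heat shock factor, had a log2 fold change of -0.28 (adjusted p = 0.323) and Hsf2 of 0.19 (adjusted p = 0.149). Bag3, a co-chaperone of HSP70 that is induced by proteotoxic stress, had the largest value of the list at 0.45 (SE 0.187, adjusted p = 0.0827, edgeR). It ran from 10.5 to 14.7 CPM in the mild group and reached 12.2 CPM in the standard group, with overlap. The remaining 6 were Hspa2 (0.32), Hspa4l (0.19), Chordc1 (0.15), Dnajb4 (0.08), Hspb1 (-0.03) and Dnaja4 (-0.03), with adjusted p-values from 0.176 to 0.897. Upper-quartile scaling raised Bag3 (0.52, adjusted p = 0.0447) and Hsf2 (0.26, adjusted p = 0.0477) past the threshold, and Hsf1 passed as lower in libraries 4 to 6 (-0.73, adjusted p = 0.0499). With library size only, which moved the median of all genes to 0.43, every tested gene of this list except Hsf1 passed as higher. Hsf1 was at 0.145 (adjusted p = 0.519, edgeR). In that setting 5515 of all 8938 genes were higher.

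The classic inducible HSP70 genes were barely detected. Hspa1a and Hspa1l had 0 counts in all 12 libraries, and Hspa1b had 2 to 9 counts in the mild group and 0 to 4 in the standard group. Hspa1a and Hspa1b are near-identical copies, so reads could have been split or lost between them. A count of 3 corresponds to 0.309 to 0.607 CPM in the mild group and to 1.13 to 2.74 CPM in the standard group, a limit that covers counting error only. The small heat shock protein genes Hspb8 (8 to 30 counts and 0 to 8 counts) and Cryab (7 to 17 and 0 to 6) were also below the filter. A difference in these genes was not tested in the main fit, and their low counts at this depth limit any comparison.

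Most partners of HSP70 and HSP90 were not called, and the shares called lower were near that of all genes. Of 8 tested exchange factors and partners of HSP70, 2 were lower (25%, compared with 17% of all genes) and 0 higher (compared with 7%) in edgeR. At an unadjusted p-value under 0.05 in edgeR, 2 were higher, and the median log2 fold change was -0.18. Bag1, which releases clients from HSP70, was at 29.4 ± 3.42 CPM (SD, n = 6) in the mild group and 48.6 ± 4.68 CPM in the standard group, without overlap. Its log2 fold change was -0.73 (SE 0.100, adjusted p = 0.000143, edgeR), and -0.49 with total count (log2) as a covariate (adjusted p = 0.515). Stub1, the ubiquitin ligase CHIP that marks HSP70 clients for degradation, was lower by TMM scaling (-0.31, adjusted p = 0.0459, edgeR) but was 0.13 with library size only. It did not pass in limma-voom (adjusted p = 0.0501), in DESeq2 (adjusted p = 0.059) or in edgeR after thinning (adjusted p = 0.0924). Its call held without mild replicate 6 or standard replicate 1 or 2 and was lost without any other library (adjusted p up to 0.149).

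The median of 14 HSP90 co-chaperones was -0.07, and 1 was higher at an unadjusted p-value under 0.05 in edgeR. After adjustment 0 were higher (compared with 7% of all genes) and 3 were lower (21.4%, compared with 17%). They were Cdc37l1, a relative of the kinase co-chaperone Cdc37 (-0.35, adjusted p = 0.0167), Ppid, the cyclophilin of steroid receptor complexes (-0.28, adjusted p = 0.0322), and Sugt1, which was named after its value was seen (-0.28, adjusted p = 0.0362). With library size only, which moved the median of all genes to 0.43, Cdc37l1 was at 0.08 and Ppid at 0.15. Cdc37l1 did not pass without mild replicate 5 (adjusted p = 0.0559), and Ppid did not pass without any of mild replicates 1 to 5 or standard replicates 3, 5 and 6 (adjusted p up to 0.105). Of 10 other J-domain genes tested, 0 passed in edgeR, compared with 24% of all genes in either direction. At an unadjusted p-value under 0.05 in edgeR, 0 were higher and 1 lower, and the median was 0.08.

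Prefoldin, which passes nascent actin and tubulin to the TRiC chaperonin, was lower in all 5 subunits tested, and Pfdn2 turned to 0.12 with library size only. The median log2 fold change of the list was -0.90. Pfdn1 was at 96.9 ± 13.6 CPM (SD, n = 6) in the mild group and 203 ± 54.8 CPM in the standard group, a log2 fold change of -1.06 (SE 0.150, adjusted p = 0.000169, edgeR). Pfdn4 was at 21.0 ± 2.90 CPM and 39.4 ± 9.13 CPM (-0.90, adjusted p = 0.000283, edgeR). Pfdn5, Pfdn6 and Pfdn2, named after their values were seen, were at -1.06, -0.62 and -0.31, and Pfdn2 did not pass without any of mild replicates 1 to 5 or standard replicates 2, 4 and 5 (adjusted p up to 0.138). In 3 of the 5 subunits the groups did not overlap, all with the mild group lower, where 5.4% of all genes were separated in this way and 17% were called lower. With total count (log2) as a covariate the 5 values lay between -0.32 and 0.05 and none passed.

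TRiC itself is the cytosolic chaperonin that receives these clients. Of its 8 subunits 1 was lower (12.5%, compared with 17% of all genes) and 0 higher (compared with 7%) in edgeR. At an unadjusted p-value under 0.05 in edgeR, 0 were higher, and the median was -0.15. Cct5 ran from 217 to 247 CPM in the mild group and from 259 to 308 CPM in the standard group, without overlap (log2 fold change -0.25, adjusted p = 0.0143, edgeR). With library size only it was 0.18, and it did not pass without mild replicate 1, 2 or 5 (adjusted p up to 0.0733). The other 7 subunits did not pass.

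In the mitochondrial group of 10 partners and proteases, 2 were lower (20%, compared with 17% of all genes) and 0 higher (compared with 7%) in edgeR. At an unadjusted p-value under 0.05 in edgeR, 0 were higher, and the median was -0.16. Grpel1, the exchange factor that works with mortalin, ran from 16.3 to 23.0 CPM in the mild group and from 29.1 to 44.0 CPM in the standard group. The groups did not overlap, and the log2 fold change was -0.78 (SE 0.128, adjusted p = 0.000312, edgeR), compared with 0.09 for Hspa9. With total count (log2) as a covariate Grpel1 was at -0.43 (adjusted p = 0.737). Clpp, a matrix protease, was lower by TMM scaling (-0.37, adjusted p = 0.0268) and was 0.06 with library size only. It did not pass without mild replicate 1, 2, 3 or 5 or standard replicate 5 or 6 (adjusted p up to 0.0760).

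Gene span moved with the fold changes of all genes. Among 8544 genes with a span in RefSeq, those under 5 kb had a median log2 fold change of -0.33 (951 genes, 42.3% lower), and the medians of the longer classes were -0.15 (5 to 10 kb), -0.03 (10 to 20 kb), 0.05 (20 to 50 kb) and 0.06 (50 kb or more, 5.98% lower). The members under 5 kb were Hspe1 at 3.09 kb (log2 fold change -0.85), Dnajb1 at 3.69 kb (-0.05) and Hspa8 at 3.86 kb (0.06). Hspd1 spanned 10.7 kb and Hsph1 19.2 kb. Of the lower genes outside the members, Pfdn6 spanned 1.48 kb, Pfdn5 4.74 kb, Grpel1 5.82 kb, Pfdn4 8.14 kb, Bag1 12.6 kb and Pfdn1 53.0 kb. The part of gene span in these results was not tested.

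**Figure D5:**
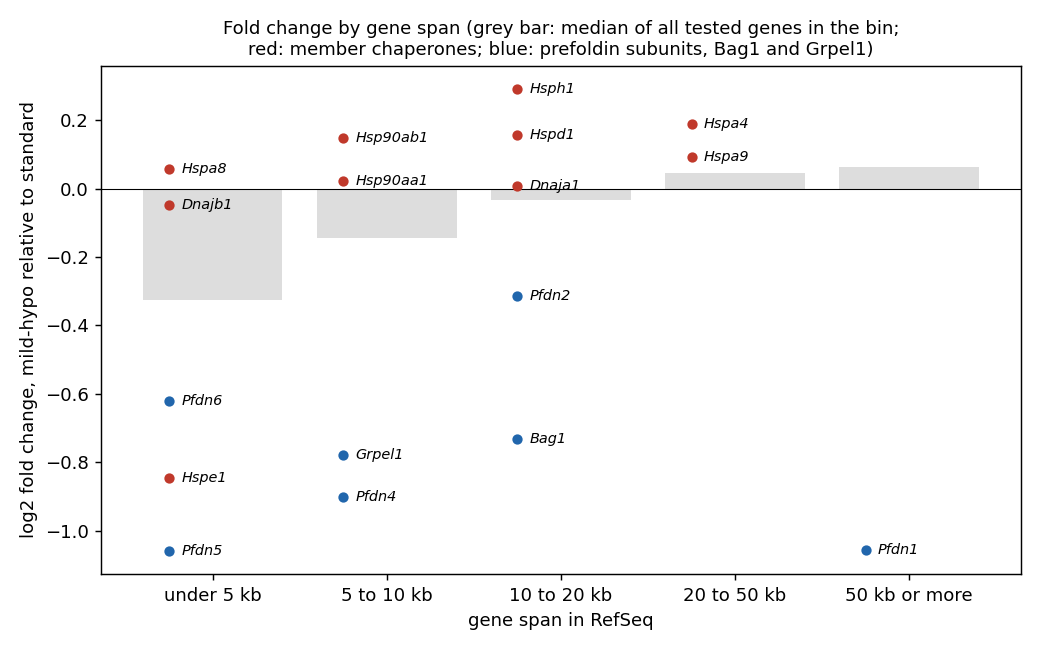
Log2 fold change (mild-hypo-OPCs relative to standard OPCs, TMM scaling) by gene span in RefSeq, with a grey bar at the median of all tested genes in each class and points for the 10 chaperones, the prefoldin subunits, Bag1 and Grpel1. The class medians rise from -0.33 to 0.06, and the members of the shortest class are Hspe1 at -0.85, Dnajb1 at -0.05 and Hspa8 at 0.06.

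Reads of member genes can be shared with pseudogene copies that the annotation lists as separate rows, and 5 such rows had counts. Hsp90aa1-ps17 held 2.42% to 3.86% of the Hsp90aa1 count in the mild group and 2.35% to 12.4% in the standard group. Its log2 fold change was -1.32 (SE 0.279, adjusted p = 0.00209, edgeR), but it was -0.10 (adjusted p = 0.83) in libraries 4 to 6. Hspa8-ps22 had 18 to 83 counts in the mild group, 8 counts in standard replicate 3 and 0 in the other 5 standard libraries, and it was called higher (adjusted p = 0.00245, edgeR). It held at most 0.736% of the Hspa8 count in any library. Hspa8-ps23, Hsp90aa1-ps16 and Hsp90ab1-ps13 held at most 0.98% of their parent gene's count and were below the filter. Adding these rows to their parents left the member calls at 1 higher and 1 lower, turned Hsp90aa1 to -0.03, and moved the difference in the log2 ratio of Hsp90aa1 to Hsp90ab1 to -0.18 (two-sided exact permutation test, adjusted p = 0.0346).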

How the data were processed

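Bulk RNA-seq of 6 mild-hypo-OPC and 6 standard OPC libraries was analysed, grouped by the labels. Per the labels, the processing tools included Trimmomatic 0.36, FastQC 0.11.9, STAR 2.7.9a and RSEM 1.3.3, with the genome build mRatBN7.2. The deposited values are whole-number gene counts without normalization, and the authors derived them from the estimated counts of RSEM, so they are treated as estimated counts already rounded. No column was left unused (0). Strand-specific kits were used, but the strand setting of the counting is not given in the sources used here, and how reads shared with pseudogene copies were divided is likewise not given.

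Genes above 10 CPM in at least 1 library were kept, as in the methods of the study, and TMM factors were computed in edgeR 4.0.16 (R 4.3.3). The main test was glmQLFit with glmQLFTest, with condition as the sole term and Benjamini-Hochberg adjustment over all genes kept (threshold 0.05). CPM values are TMM-scaled, and log2 CPM uses a prior count of 2. The study used limma-voom (limma 3.58.1), which was an alternative here, as was DESeq2 1.42.0. Ratios within a library, with 0.5 added to each count, were compared by a two-sided exact permutation test (SciPy 1.17.1) and adjusted over the 4 ratios. The other alternatives were scaling by upper quartile or by library size alone, other filters on low counts, depth as a covariate, thinning, libraries 1 to 3 or 4 to 6 alone, a replicate block, leaving out each library, and summing pseudogene copies with their parents. The gene span classes were added after the data were seen.

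Libraries of a group were compared pairwise, and each of the 15 pairs per group differed by more than sampling noise (a chi-square of 3.22 to 19.7 per degree of freedom in the mild group and of 3.78 to 18.8 in the standard group), so none was treated as a duplicate. The numbers in the labels were checked for pairing: the deviations of same-numbered libraries had correlations from -0.276 to 0.296, and 1 of 6 libraries correlated best with its own number, so the numbers were not taken as pairs. Named genes are all members, the detected genes of the inducible list, up to 2 called genes with the lowest adjusted p per direction in each other list, the pseudogene copies, and the 5 genes whose deviations were most like the members'. A gene left out of the HSP90 co-chaperone list and of its counts is not reported here. The members and lists were chosen with earlier results of these data known. Scripts were tested on simulated data. Promoters and spans are RefSeq's (GRCr8), matched by symbol for 9 of 10 members and 8544 of 8938 genes, and no position from the RefSeq gene table is printed. Figures were drawn with matplotlib 3.10.9.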

Additional observations from a re-analysis of the deposited data

Results flagged for a closer look

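Of 32 groups of 6 libraries examined for a library far from the rest, 2 had a gap above Dixon's critical value of 0.625, where chance gives about 1 in 20. Hsp90ab1 in mild-hypo-OPC replicate 1 was at 1355.0 CPM, and the other mild libraries lay between 1231 and 1260.3 CPM. Without this library the log2 fold change of Hsp90ab1 did not pass the test either. The same library had the highest total, 9022324 counts, and the other mild libraries had between 4111669 and 5474102. Whether the depth of this library bears on its Hsp90ab1 level was not tested.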

How the results depend on the processing

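Hspe1 was lower under every alternative run, and its call was lost only with total count (log2) as a covariate. Among the 10 members the count of higher genes was 1 in the main test, 2 with DESeq2 (Hsph1 and Hsp90ab1), 4 with upper-quartile scaling, 9 with library size only, and 0 with the covariate, in libraries 1 to 3, in libraries 4 to 6 and after thinning to the smallest total. Leaving out 1 library gave 0 to 2. The count of lower members was 1 throughout, except 0 with the covariate, and 1 to 1 when leaving out 1 library. Among the 64 wider genes the count of higher genes, 0 in the main test, was 5 with upper-quartile scaling, 41 with library size only, and 1 in libraries 4 to 6 and after thinning (0 to 2 when leaving out 1 library). Their count of lower genes, 13 in the main test, was 7 with upper-quartile scaling, 5 with library size only, 6 with no filter, 5 in libraries 1 to 3 and 0 with the covariate (6 to 16 when leaving out 1 library). Library size only moved the median of all genes to 0.43 and the subsets by number hold fewer samples. For the other settings the cause was not tested.

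Log2 fold changes that turned in sign were as follows. With the covariate, Hspa4 was -0.175, Hsp90aa1 -0.185, Hsp90ab1 -0.0458, Dnaja1 -0.0841, Dnajb1 0.105, Hspd1 -0.0905, Hspb1 0.0862, Hspa4l -0.369, Stub1 0.157, Strbp -0.311, Mprip -0.304, Pals2 0.00667 and Pfdn2 0.0469. With library size only, Dnajb1 was 0.383, Hsf1 0.145, Hspb1 0.399, Dnaja4 0.396, Stub1 0.129, Cdc37l1 0.0841, Ppid 0.154, Cct5 0.185, Clpp 0.0556, Atg3 0.124, Pals2 0.373 and Pfdn2 0.123. With upper-quartile scaling, Dnajb1 was 0.0226, Hspb1 0.0363, Dnaja4 0.0347 and Pals2 0.0184. With no filter, Hspb1 was 0.00199 and Dnaja4 0.000834. In libraries 1 to 3, Dnajb1 was 0.0522, Hsf1 0.161 and Pals2 0.0852. In libraries 4 to 6, Hsp90aa1 was -0.0196, Dnaja1 -0.0571, Hspb1 0.0297, Dnajb4 -0.0937, Dnaja4 0.155, Strbp -0.165, Mprip -0.00777 and Trim23 -0.00858. After thinning, Hspb1 was 0.00442 and Dnaja4 0.0525. Summed with its pseudogene copies, Hsp90aa1 was -0.0305. Leaving out 1 library gave -0.0137 to 0.0731 for Hsp90aa1, -0.00968 to 0.0535 for Dnaja1, -0.1 to 0.0741 for Dnajb1, -0.0873 to 0.0217 for Hspb1, -0.0149 to 0.175 for Dnajb4, -0.105 to 0.0383 for Dnaja4 and -0.109 to 0.172 for Pals2.

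For the ratios, the difference for Hspe1 to Hspd1 was -0.712 in libraries 1 to 3 and -1.26 in libraries 4 to 6, where 3 against 3 cannot pass, and -1.12 to -0.887 when leaving out 1 library (adjusted p = 0.0173 in each exact permutation test). That for Hsp90aa1 to Hsp90ab1 was -0.176 with pseudogene copies summed and -0.165 to -0.104 when leaving out 1 library, that for Dnajb1 to Dnaja1 was -0.109 to 0.0459, and that for Hsph1 to Hspa4 was 0.0584 to 0.184. With the replicate number as a block, the member counts stayed at 1 higher and 1 lower, 10 wider genes were lower, the calls of Pfdn2 (adjusted p = 0.0509, edgeR) and Ppid (adjusted p = 0.0608, edgeR) were lost, and the ratio of Hspe1 to Hspd1 differed by -0.986 (exact sign-flip test, p = 0.0312, the smallest that 6 pairs allow, adjusted p = 0.125). The numbers were not taken as pairs in the main tests, and the labels do not say which libraries share a culture. Depth limits these results, since standard libraries were shallower than mild ones without overlap.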
